A study of Mus musculus with 36 samples.

Results

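The respiratory chain was followed through its structural subunits, taken as every protein-coding gene whose symbol marked a mitochondrially encoded subunit (mt-Nd, mt-Co, mt-Atp or mt-Cytb) or a nuclear encoded subunit of complex I (Ndufa, Ndufb, Ndufc, Ndufs or Ndufv), complex III (Uqcr), complex IV (Cox4 to Cox8) or complex V (Atp5), with the Ndufaf assembly factors left out. The rule used names only and no measured value. It found 96 of the 19879 genes in the tables, 13 in the mitochondrial set (7 of complex I, 1 of complex III, 3 of complex IV and 2 of complex V) and 83 in the nuclear set (38, 8, 19 and 18 of the same complexes). Expression was measured by poly(A) RNA-seq in BV-2 cells, an immortalised line of mouse microglia in which every library was wild-type. There were 12 groups of 3 libraries, and per the study's methods each experiment was done 3 times. At 4 h and at 24 h the cells had received the vehicle DMSO, the vehicle EtOH (ethanol), the endotoxin LPS at 600 ng/mL, or LPS together with 30 µM dimethyl fumarate (DMF), 30 µM monomethyl fumarate (MMF) or 6 µM cannabidiol (CBD). Vehicles were at 0.2%, serum was lowered to 0.1% just before treatment in every group, DMSO carried DMF and MMF, and EtOH carried CBD. Which vehicle the LPS-alone cells received is not given in the sources used here, so a compound and its vehicle cannot be told apart in a comparison with LPS alone. The vehicle libraries are numbered 4 to 6 and those of the LPS groups 1 to 3, and nothing in the labels shows that they were made together, so a batch difference and the effect of LPS cannot be told apart in a comparison of LPS with a vehicle. BV-2 is a transformed line and not primary microglia.

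The respiratory chain passes electrons from NADH through complex I, ubiquinone, complex III, cytochrome c and complex IV to oxygen, and complex V (ATP synthase) uses the proton gradient this builds to make ATP. Its subunits are the products of separate genomes. The mitochondrial genome encodes the hydrophobic core subunits and is transcribed inside the organelle as long polycistronic RNAs, which are cut into single transcripts that then turn over at their own rates, whereas the remaining subunits are nuclear genes whose proteins are imported. In microglia, activation by endotoxin is known to be accompanied by a shift from oxidative phosphorylation towards glycolysis. Only transcript levels were read here, and respiration and glycolysis were not measured.

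The libraries held 14110424 to 26676607 counted reads. The levels below are read counts divided by a size factor computed over all 36 libraries (normalised read counts), and group values are mean ± SD with n = 3. Differences are log2 differences of normalised count + 1 with their standard error (SE), fitted by limma over all genes of the 6 libraries compared. Libraries were not paired in these main fits. Genes with an adjusted p (Benjamini-Hochberg) under 0.05 are said to be called. The share of all genes called, the background, is given for the main fits only. Of 11 microglia and macrophage markers sought, 10 were in the tables and all 10 had a mean of at least 10 counts, whereas the neuronal marker Rbfox3 and the oligodendrocyte markers Mog and Olig2 were at or near 0. The summed microglial markers ranged from 26761 to 42217 counts between groups. At 24 h CBD lowered Cx3cr1 (-4.09) and raised Cd68 (1.12), both on the log2 scale. The part of such changes of cell state in the results below was not tested, and in bulk RNA fewer transcribing cells and less RNA per cell cannot be told apart.

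One library stood apart in the mitochondrial set. LPS at 24 h, replicate 1, held 239440 mitochondrial counts against 400310 and 347707 in replicates 2 and 3 of its group, which was 1.44% of its reads against 2.31% and 2.04%. It is a reference library of every comparison with LPS at 24 h, so the counts of calls, the mitochondrial values and the values of the leading nuclear members in those comparisons are also given without it.

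The mitochondrial members were read against a nuclear sequence before their levels were compared, because a read that matches both places can be lost in counting. On GRCm39, the build the authors used, a stretch of chromosome 1 (chr1:24650616-24655269, minus strand) copied positions 6390 to 11042 of the mitochondrial genome over 4654 aligned bases with 2 mismatches, 1 gap and 99.936% identity. The stretches around the mismatches are among the places where a short read could tell the copies apart, and the gap, an additional base of the copy at mitochondrial position 9829 between genes, is not shown. They are printed with the differing base in capitals, written as the mitochondrial base, its mitochondrial position and the base of the copy on the mitochondrial strand. The difference in mt-Co1 is A6393T and that in mt-Nd3 is T9461C.
mt-Co1, chrM:6390-6423: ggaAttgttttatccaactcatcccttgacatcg
chromosome 1 copy, chr1:24655236-24655269: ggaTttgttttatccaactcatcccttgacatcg
mt-Nd3, chrM:9431-9491: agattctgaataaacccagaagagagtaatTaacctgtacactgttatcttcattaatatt
chromosome 1 copy, chr1:24652168-24652228: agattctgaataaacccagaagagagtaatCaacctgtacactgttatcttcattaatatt

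Counts per kilobase of transcript differed between members inside and outside that copy. In mt-Co2 (chrM:7013-7696), mt-Atp8 (7766-7969), mt-Atp6 (7927-8607), mt-Co3 (8607-9390) and mt-Nd4l (9877-10173) all windows of 150 bases, the read length, had an identical nuclear copy, and in mt-Nd3 (9459-9806) 98.5% did. Their mean levels over the 36 libraries were 1382 counts per kb for mt-Co2, 371 for mt-Co3, 282 for mt-Atp6, 46.3 for mt-Nd4l, 29.2 for mt-Atp8 and 22.8 for mt-Nd3. The members with no such window were all above these. Among them mt-Cytb (14145-15288) was at 44756 counts per kb, mt-Nd1 (2751-3707) at 38069, mt-Nd5 (11742-13565) at 15746, mt-Nd6 (13552-14070, the only member on the minus strand) at 14179 and mt-Nd2 (3914-4951) at 13968. The members crossing an end of the copy were mt-Co1 (5328-6872; 23.6% of windows) at 124744 counts per kb and mt-Nd4 (10167-11544; 59.2%) at 10354. Each of these genes is a single coding exon. Whether reads were discarded because they matched both places was not tested, and the treatment of such reads is not given in the sources used here. Levels of single mitochondrial genes are therefore not ranked below. The sums, the share of mt-Co1, the median per kb and the ratio to the nuclear set pool copied and uncopied members and carry the same possible loss. Changes in mt-Co2, mt-Co3, mt-Atp6, mt-Nd4l, mt-Atp8 and mt-Nd3 rest on few reads. Strand was not stated either, so reads in the overlap of mt-Nd5 with mt-Nd6, on opposite strands, cannot be assigned to a single gene. The overlaps of mt-Atp8 with mt-Atp6 and of mt-Nd4l with mt-Nd4 are on the same strand. Reads there could not be assigned by strand in any case.

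**Figure D1:**
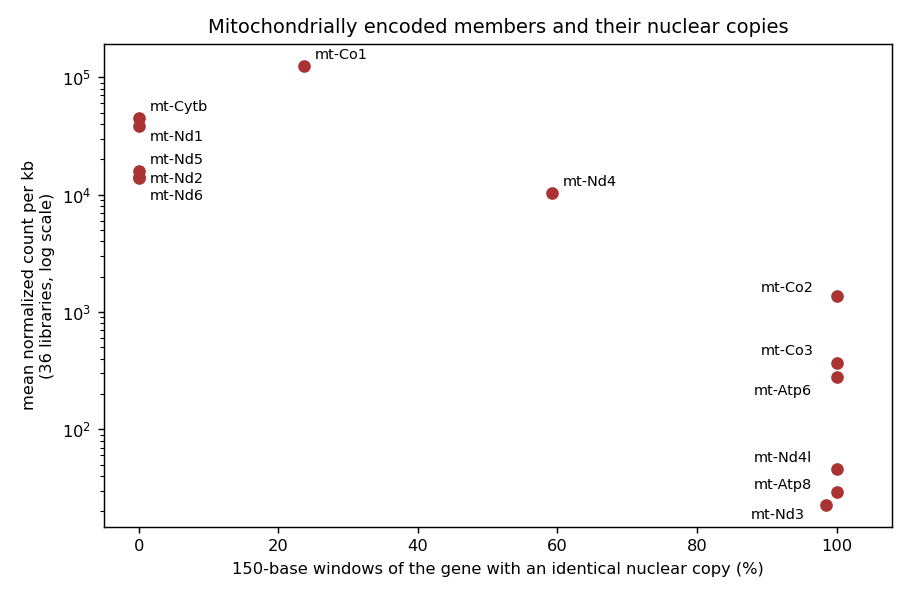
Mean normalised count per kb over 36 libraries (log axis) of the 13 mitochondrially encoded members against the percentage of their 150-base windows that have an identical nuclear copy. The 5 members with no such window lie between 13968 and 44756 counts per kb, and the 6 members with 98.5% or more of windows copied lie between 22.8 and 1382.

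The summed mitochondrial set, much of which was mt-Co1, was lowest with LPS plus CBD at 24 h. Its other group means lay close together, which did not hold for the sum without mt-Co1 given below. The 3 CBD libraries at 24 h held 234211, 213593 and 218585 counts (222129 ± 10757), below every library of the next group, LPS at 24 h (329152 ± 82025). The other groups lay between 342567 (DMSO, 4 h) and 376606 (LPS, 4 h), and each overlapped its neighbour in the order. The highest group mean was 1.70 times the lowest. Between LPS at 24 h and LPS plus CBD at 24 h, the mitochondrial sum fell to 67.5% and the nuclear sum to 86.5% of the LPS value. Leaving out 1 library at a time, the mitochondrial figure ranged from 59.4% to 75.7%.

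The summed nuclear set varied less. It was also lowest with LPS plus CBD at 24 h (132272 ± 5777), but there it overlapped LPS plus DMF at 24 h (140767 ± 4893), and it was highest with LPS plus DMF at 4 h (176597 ± 18569), 1.34 times the lowest. The number of mitochondrial counts per nuclear count was 1.68 ± 0.0112 with CBD at 24 h, below all libraries of the next group, LPS plus DMF at 4 h (2.04 ± 0.179). It was highest with LPS plus DMF at 24 h (2.58 ± 0.0931), and all other neighbours in that order overlapped. The LPS 24 h library that stood apart was itself at 1.48, below the CBD libraries. Together the mitochondrial set took 1.25 to 2.31% and the nuclear set 0.752 to 1.11% of the counted reads in a library.

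**Figure D2:**
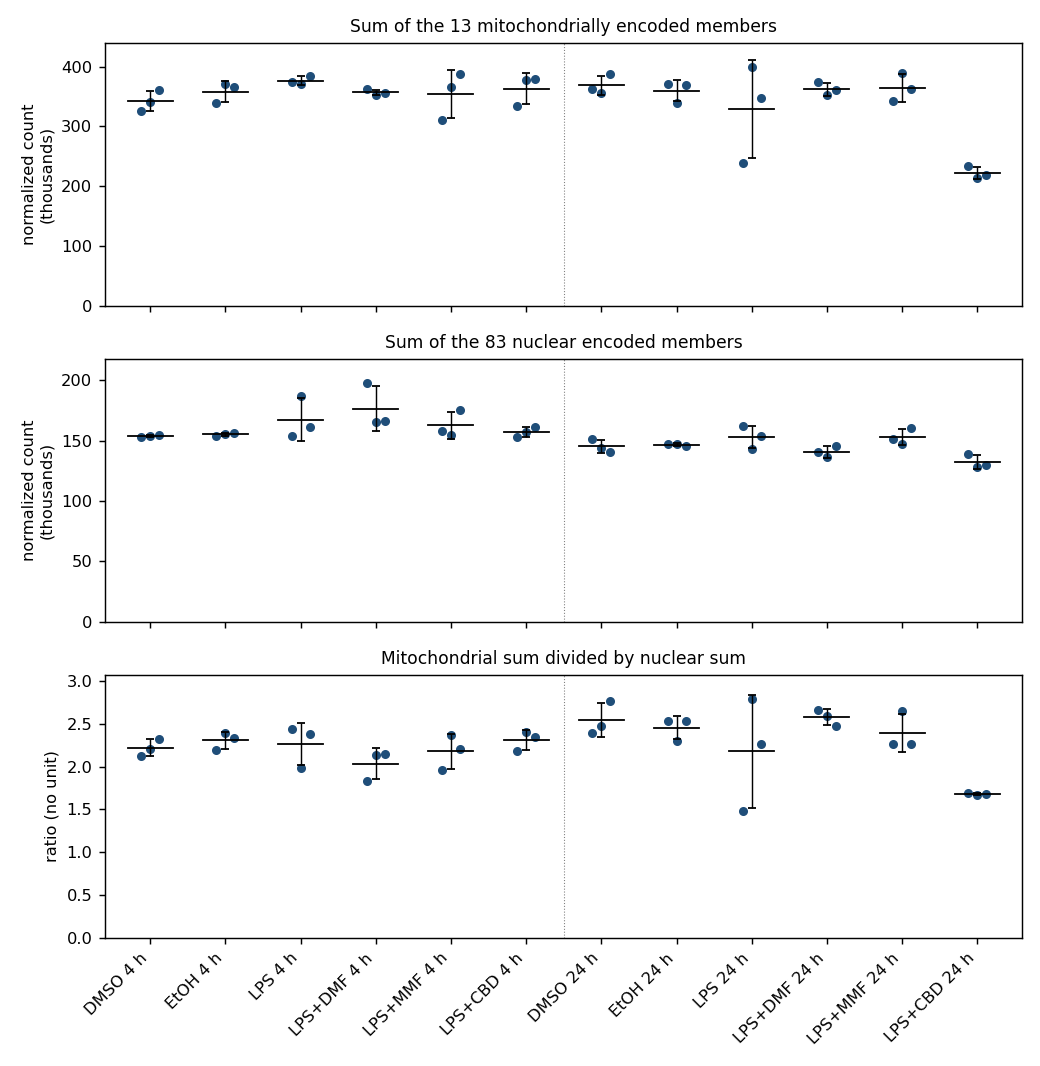
Summed normalised counts of the mitochondrial set (13 genes) and the nuclear set (83 genes), and their ratio, in the 12 groups (points are libraries, horizontal lines means, bars SD, n = 3). LPS plus CBD at 24 h is lowest in each panel, at 222129, 132272 and 1.68, and the lowest LPS 24 h point in the mitochondrial panel is the library at 239440.

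Among single members the mitochondrial genes moved more between groups than the nuclear ones. With a mean of at least 10 counts were 11 mitochondrial and 78 nuclear members, 89 in all. All 11 mitochondrial members had their lowest group mean with LPS plus CBD at 24 h, as did 37 of the 78 nuclear members. The highest group mean was a median of 2.54 times the lowest for mitochondrial and 1.46 times for nuclear members, and passed 2 times for 6 and 8 members (with 1 count added to each mean). How many of all genes were lowest with LPS plus CBD at 24 h, or passed 2 times, was not counted. These member counts therefore have no background beside them. Per kb of transcript, the median level was 13968 counts for mitochondrial members and 1181 for nuclear members, of which Atp5f1b, the catalytic beta subunit of ATP synthase, was highest at 11524, followed by the complex IV subunits Cox8a at 9341 and Cox4i1 at 6934.

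mt-Cytb, the cytochrome b subunit of complex III, had the widest span among well counted mitochondrial members. Its libraries with LPS plus CBD at 24 h were at 17660, 15048 and 20236 counts, those with LPS at 24 h at 23604, 41112 and 39183, and those with DMSO at 24 h at 51871, 48817 and 50181. These groups did not overlap. At 4 h it stood at 56840, 55708 and 61289 with DMSO, 67742, 66145 and 71119 with LPS, and 59308, 68370 and 66793 with LPS plus CBD. The CBD libraries lay near the LPS libraries at 4 h and below them at 24 h. The highest group mean of mt-Cytb was 3.87 times the lowest, and that of mt-Nd1, a membrane subunit of complex I, 3.57 times.

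mt-Co1, the catalytic subunit of complex IV, followed a different course from mt-Cytb. It was at 154499, 177485 and 182437 counts with DMSO at 4 h and at 208255, 210078 and 236781 with DMSO at 24 h, and the later libraries were all higher. With LPS plus CBD it was at 156060, 184795 and 189033 at 4 h and at 164564, 155837 and 138209 at 24 h, which overlap. Without mt-Co1, the other 12 members summed to 69260 ± 11315 counts with LPS plus CBD at 24 h, 116701 ± 29740 with LPS at 24 h and 186785 ± 8039 with LPS plus CBD at 4 h. The remaining 24 h groups had means of that sum up to 150341 (DMSO). At 4 h the group means ran from 171094 (DMSO) to 202076 (LPS), and every 4 h library was above every 24 h library. mt-Co1 made up 63.2 to 73.0% of the mitochondrial counts in the CBD libraries at 24 h.

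**Figure D3:**
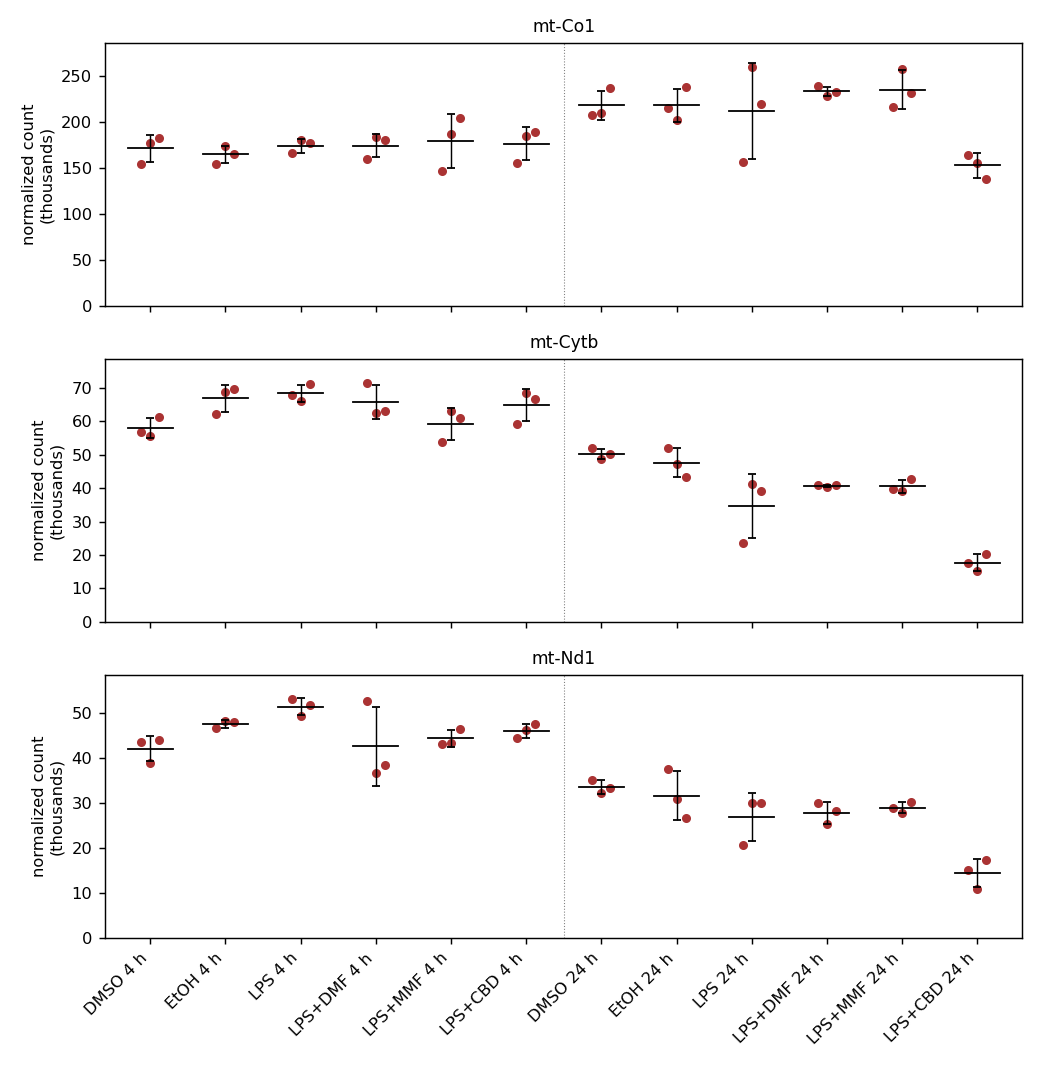
Normalised counts of mt-Co1, mt-Cytb and mt-Nd1 in the 12 groups (points are libraries, horizontal lines means, bars SD, n = 3). mt-Cytb and mt-Nd1 are lower at 24 h than at 4 h in every treatment and lowest with LPS plus CBD at 24 h, while the mean of mt-Co1 is above its 4 h mean in every treatment but LPS plus CBD.

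The comparison of LPS plus CBD with LPS at 24 h asked how cannabidiol changed the endotoxin-treated cells, and more members were lower than higher in both sets. Of 11 mitochondrial members tested 6 were lower and none higher, with a median log2 difference of -0.63, and of 78 nuclear members 25 were lower and 2 higher, with a median of -0.17. The background was wide, since 24.8% of all genes tested were lower and 23.9% higher, around a median of -0.002. The mitochondrial share called lower was above the background and the nuclear share a little above it, while nuclear members called higher were fewer than in the background. By limma with Benjamini-Hochberg adjustment over all genes, mt-Cytb was lower by 0.94 (SE 0.20, adjusted p = 0.00385), mt-Nd1 by 0.90 (SE 0.19, adjusted p = 0.00336) and mt-Nd6 by 0.58 (SE 0.11, adjusted p = 0.00192).

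The other 3 mitochondrial calls were mt-Atp6, mt-Co2 and mt-Nd2. mt-Atp6, a proton channel subunit of ATP synthase, was lower by 0.82 (limma adjusted p = 0.0162) and mt-Co2, which carries a copper centre of complex IV, by 0.74 (adjusted p = 0.0114). mt-Nd2 was lower by 0.63 (adjusted p = 0.0427), but its groups overlapped, with 6478, 5669 and 8412 counts with CBD and 7053, 13732 and 11900 with LPS. The members not called had log2 differences of -1.02 (mt-Nd4l), -0.62 (mt-Nd4), -0.52 (mt-Co3), -0.44 (mt-Co1) and -0.44 (mt-Nd5). Without LPS replicate 1 all 11 members were called lower, their median was -0.94, and mt-Cytb, mt-Nd1 and mt-Nd2 stood at -1.19, -1.07 and -0.91. The call of mt-Nd2 was lost without LPS replicate 2 (-0.44) or 3 (-0.54) and without CBD replicate 1 (-0.60) or 2 (-0.50), and that of mt-Atp6 without LPS replicate 3 (-0.67) or CBD replicate 1 (-0.69). The mitochondrial median minus the nuclear median was -0.46 with all libraries, and it ranged from -0.80 without LPS replicate 1 to -0.27 without LPS replicate 2. With replicate number as a block the whole count rose from 33 to 43 members. The share of all genes called with the block, or with a library left out, is not given here. These counts are therefore not set against a background.

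Complex V held the most nuclear members that changed with CBD at 24 h. Of its 18 nuclear members 9 were lower and none higher (median -0.31), several of them small subunits of the membrane part. Atp5mf was at 829, 794 and 826 counts with CBD against 1307, 1179 and 1198 with LPS, a clear gap (log2 difference -0.58, SE 0.08, limma adjusted p = 0.000335). Atp5mj (-0.64), Atp5mk (-0.63), Atp5me (-0.63) and the c-ring gene Atp5mc3 (-0.61) were lower to a like degree, as were Atp5po (-0.57), which joins the catalytic head to the stalk, and the catalytic alpha subunit Atp5f1a (-0.56). In the annotation Atp5mk shares 39.1% of its exon bases with Taf5 on the other strand, so without stated strand its reads are less certain. Such overlaps are not particular to Atp5mk. Of the 96 members 67 share exon bases with another gene on either strand, 38 of them with a partner at a mean of 10 or more counts. Atp5mc1 and Atp5mc2, which encode the same mature c subunit as Atp5mc3, were not called.

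Complexes III, IV and I followed. In complex III 4 of 8 nuclear members were lower and 1 higher: the hinge subunit Uqcrh (-0.55, SE 0.09, limma adjusted p = 0.000698), the Rieske iron-sulfur subunit Uqcrfs1 (-0.52), Uqcr11 (-0.39) and Uqcr10 (-0.26) were lower. Uqcrh was at 995, 904 and 867 counts with CBD and at 1428, 1376 and 1266 with LPS, without overlap. In complex IV 7 of 15 tested were lower and 1 higher, with Cox7c at -0.43, Cox6b1 at -0.40 and Cox6c at -0.33. Ndufa4, a complex IV subunit despite its name and counted there, was lower by 0.21, a call lost without LPS replicate 1, 2 or 3 (-0.24, -0.23 and -0.18), CBD replicate 2 or 3 (-0.17 and -0.21), or by edgeR. Complex I changed least densely, with 5 of 37 lower and none higher, led by Ndufv3 (-0.45) and Ndufb5 (-0.40). Both shares were below those of all genes, 24.8% lower and 23.9% higher. Ndufv3 was at 857, 891 and 760 counts with CBD and at 1067, 1229 and 1130 with LPS, without overlap. Without LPS replicate 1 the nuclear calls went from 27 to 22. Those of Ndufb5 (-0.28) and Uqcr10 (-0.22) were then lost, while Atp5mf (-0.53), Atp5mj (-0.51), Atp5mk (-0.47), Atp5me (-0.56), Atp5mc3 (-0.49), Uqcrh (-0.51), Uqcrfs1 (-0.40) and Ndufv3 (-0.49) were still called.

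**Figure D4:**
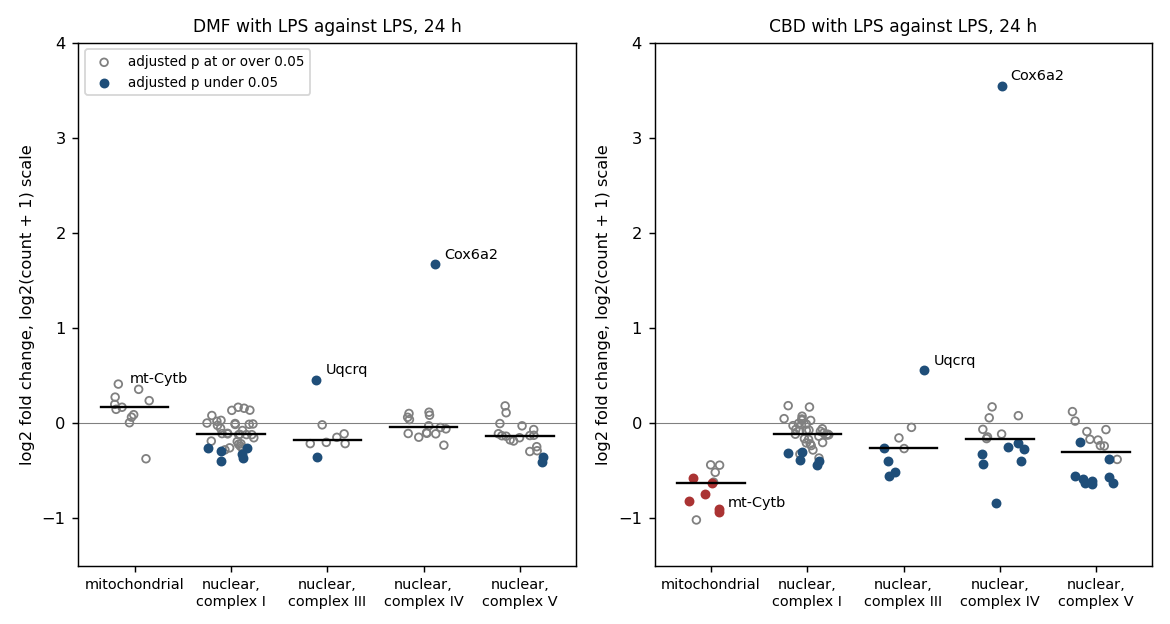
Log2 difference from LPS at 24 h for LPS plus DMF and LPS plus CBD, each member a point, by set and complex (filled where the limma adjusted p is below 0.05, lines are medians). With CBD the mitochondrial median is -0.63 and all 11 points are below 0, while Cox6a2 (3.55) and Uqcrq (0.56) lie above the rest of their complexes.

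Cox6a2 and Uqcrq ran against the rest. Cox6a2 is the heart and skeletal muscle form of a complex IV subunit whose widespread form is Cox6a1. It was at 141, 92.0 and 167 counts with LPS at 24 h, at 390, 413 and 446 with LPS plus DMF, and at 1392, 1462 and 1734 with LPS plus CBD, while LPS plus MMF gave 165, 100.5 and 147. The DMF and CBD libraries lay above every other library of the series and did not overlap each other. The log2 difference from LPS was 3.55 with CBD (SE 0.20, 11.7-fold, limma adjusted p = 3.51e-06) and 1.67 with DMF (SE 0.19, 3.19-fold, adjusted p = 0.000441). At 4 h the same treatments gave 109, 94.8 and 97.2 counts with CBD and 145, 96.7 and 103 with DMF, within the range of the other groups. Cox6a1 group means stayed between 3526 and 4399 counts throughout, and per kb Cox6a1 was at 6905 and Cox6a2 at 374 counts over all libraries.

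The position of Cox6a2 limits its reading. It lies at chr7:127804607-127805559 on the minus strand, within the span of Itgad, an integrin gene on the plus strand, and the genes share 70 exon bases, 10.2% of those of Cox6a2. At 24 h Itgad was at 28.5, 21.4 and 38.3 counts with LPS plus CBD, 20.9, 15.8 and 9.8 with LPS plus DMF, 3.3, 1.1 and 4.7 with LPS alone and 7.2, 2.0 and 7.0 with LPS plus MMF. It was thus higher in the same treatments, in counts that reached at most 38.3. Which strand the reads came from was not tested. Uqcrq, a small subunit of complex III, was at 4178, 3721 and 4190 counts with LPS plus CBD, 3580, 3687 and 4048 with LPS plus DMF, 3082, 2944 and 3436 with LPS plus MMF and 2476, 2656 and 3139 with LPS at 24 h. Both compounds were above LPS in every library, by 0.56 with CBD (SE 0.10, limma adjusted p = 0.00146) and 0.46 with DMF (SE 0.09, adjusted p = 0.00635). Without LPS replicate 1 the differences with CBD were 3.62 for Cox6a2 and 0.49 for Uqcrq, and with DMF 1.74 and 0.39, all still called.

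**Figure D5:**
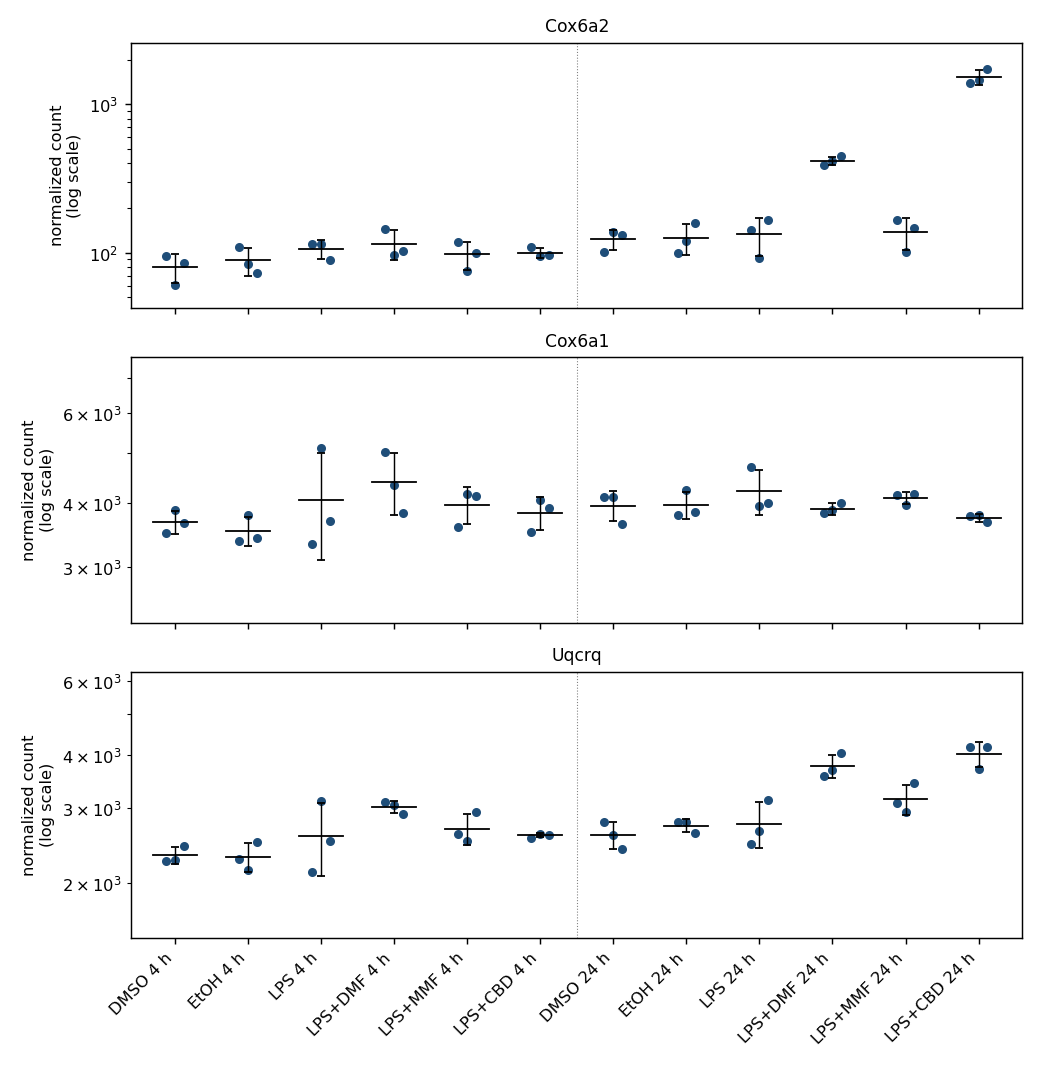
Normalised counts (log axis) of Cox6a2, its widespread counterpart Cox6a1 and Uqcrq in the 12 groups (points are libraries, horizontal lines means, bars SD, n = 3). Cox6a2 reaches 416 with LPS plus DMF and 1529 with LPS plus CBD at 24 h and stays between 80.0 and 138 elsewhere, while Cox6a1 keeps to 3526 to 4399.

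The alternative subunits otherwise kept to the forms used outside muscle, lung and testis. Cox4i2, Cox6b2, Cox8b and Ndufb11b, counterparts of widely used subunits, had means of 0.21 to 3.8 counts per library. Cox7a1 (group means 8.5 to 24) was near the lower limit of the test and was lower with CBD at 24 h (-0.84, limma adjusted p = 0.0464), at 11.8 ± 2.82 against 21.8 ± 3.47 counts, a call lost without any 1 of the 6 libraries (-0.98 to -0.65). The widely used counterparts were well counted in every group, Cox6b1 with group means of 1836 to 3065 and Cox7a2 with 1477 to 2342. Atp5if1, the inhibitor protein of ATP synthase, kept to 437 to 684.

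Whether CBD acted differently at 24 h than at 4 h was tested by the interaction of treatment and time. It was called for 3 of 13 mitochondrial members, all with a lower value at 24 h, and for 8 of 78 nuclear members, 5 lower and 3 higher, where the background was 16.7% lower and 15.4% higher of all genes. The median interaction was -0.55 for mitochondrial and -0.10 for nuclear members. mt-Cytb had an interaction of -0.86 (SE 0.25, limma adjusted p = 0.0186) and mt-Nd1 of -0.75 (SE 0.23, adjusted p = 0.025). At 4 h itself CBD changed no member by limma, and none had an unadjusted p below 0.05 or was called by edgeR, with 0.00875% of genes higher and 0% lower in the background. Without LPS 24 h replicate 1 the interaction was called for 8 mitochondrial and 4 nuclear members. The count of 11 was 22 without LPS 4 h replicate 2, 7 without LPS 24 h replicate 2, 6 without LPS 4 h replicate 3 and 4 without CBD 4 h replicate 3.

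LPS against its vehicles at 24 h asked what endotoxin did by itself, and few members changed. Against DMSO 1 of 11 mitochondrial members was lower (median -0.24), and 6 of 79 nuclear members were higher and 2 lower (median 0.11), beside a background of 12.1% higher and 10.6% lower. mt-Cytb was lower by 0.57 (SE 0.17, limma adjusted p = 0.0363), and without LPS replicate 1 by 0.31, still called. Its call was lost without DMSO replicate 4 (-0.55), 5 (-0.58) or 6 (-0.57). Against EtOH no mitochondrial member was called by limma or edgeR, with 1 at an unadjusted p below 0.05, and 2 nuclear members were higher and 2 lower of 79, beside 10.8% higher and 9.72% lower in the background.

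Ndufv3, an accessory subunit of the NADH-oxidising arm of complex I, was lower with LPS than with both vehicles. It was at 1067, 1229 and 1130 counts with LPS at 24 h, 1523, 1789 and 1534 with DMSO and 1387, 1642 and 1679 with EtOH, without overlap, a log2 difference of -0.48 (SE 0.09, limma adjusted p = 0.00281) and -0.45 (SE 0.10, adjusted p = 0.00665). The members higher than DMSO were Atp5mk (0.49), Ndufc2 (0.37), Ndufs4 (0.35), Ndufb3 (0.33), Ndufs5 (0.28) and Ndufs8 (0.24). The call of Atp5mk was lost without DMSO replicate 6 (0.40), that of Ndufs4 without DMSO replicate 6 (0.31) or LPS replicate 3 (0.33), and that of Ndufc2 without any DMSO library (0.31 to 0.41) or LPS replicate 1 (0.23) or 3 (0.40). Against EtOH, Uqcrb (0.40) and Ndufa2 (0.26) were higher, and neither call held without any 1 of the EtOH libraries or LPS replicate 1 (0.29 and 0.19), nor that of Ndufa2 without LPS replicate 2 (0.27). Ndufa4l2, named because it was called and after its values were seen, was lower by 1.25 (5.84 ± 0.616 against 15.6 ± 4.19 counts) and by 1.32, and it shares 63.3% of its exon bases with Shmt2 on the other strand. The same LPS libraries serve in both comparisons, which are therefore not independent. Without LPS replicate 1 the 9 calls against DMSO became 5 and the 4 against EtOH became 1, and the gap between the mitochondrial and nuclear medians went from -0.34 to -0.09 and from -0.34 to -0.03. The count against DMSO was also 4 without DMSO replicate 5, 1 without DMSO replicate 6 and 18 without LPS replicate 2. The count against EtOH was 2 without EtOH replicate 4, 1 without replicate 5 or replicate 6, and 10 without LPS replicate 2.

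LPS plus DMF against LPS at 24 h gave no call in the mitochondrial set and nuclear calls at shares below the background. None of 11 mitochondrial members was called by limma or edgeR or had an unadjusted p below 0.05, with a median of 0.17 and a span from -0.38 (mt-Nd4l) to 0.41 (mt-Nd4). The nuclear set had 9 members lower and 2 higher of 78 (median -0.11), against a background of 13.2% lower and 11.9% higher. Besides Cox6a2 and Uqcrq, which were higher, the members with the largest differences were Atp5mk (-0.40), Ndufc2 (-0.40) and Ndufv1, the NADH-binding subunit of complex I (-0.36, SE 0.09, limma adjusted p = 0.0133). Ndufv1 was at 2734, 2586 and 2772 counts with DMF and at 3864, 3157 and 3403 with LPS, without overlap. Also lower were Ndufa9 at -0.30, Ndufs4 at -0.26, Ndufb3 at -0.26, Uqcrfs1 at -0.36 and Atp5f1a at -0.35.

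The DMF count at 24 h depended on which libraries entered. With replicate number as a block it rose from 11 to 24, and the share of all genes called with the block is not given here. Without LPS replicate 1 it was 5, and the gap between mitochondrial and nuclear medians went from 0.28 to -0.01. Without it Atp5mk and Ndufc2 were no longer called (-0.24 and -0.25), nor were they without DMF replicates 1, 2 or 3 (-0.43 to -0.35), and Ndufc2 was not without LPS replicate 3 (-0.43) nor Ndufv1 without DMF replicate 2 (-0.33). Leaving out DMF replicate 1, 2 or 3 gave 7, 3 or 4 calls, LPS replicate 2 gave 17 and LPS replicate 3 gave 5. The interaction of DMF with time was called for Cox6a2 only, higher by 1.57 at 24 h than at 4 h (SE 0.29, limma adjusted p = 0.00247), 1 of 78 nuclear and 0 of 12 mitochondrial members, beside 8.45% higher and 7.89% lower in the background. For the mitochondrial members no interaction had an unadjusted p below 0.05, and edgeR called none. The interaction count was 6 without LPS 4 h replicate 2 and 5 without LPS 24 h replicate 2.

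MMF, the monomethyl ester into which DMF is converted in the body, gave no called member at either time in the main fits. At 24 h limma and edgeR called 0 of 11 mitochondrial and 0 of 79 nuclear members, 0 and 3 of which had an unadjusted p below 0.05, and 0% of all genes were called in either direction. The medians were 0.15 and -0.005, and the gap between them went from 0.16 to -0.10 without LPS replicate 1. With replicate number as a block Ndufa3 (0.35, limma adjusted p = 0.00721) and Uqcrq (0.20, adjusted p = 0.0425) were called. At 4 h limma and edgeR called none of 12 and 78 members, 1 and 0 of which had an unadjusted p below 0.05, beside 0.0787% higher and 0.0437% lower in the background.

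DMF and MMF were given at the same 30 µM dose and differ by an ester group, a methyl ester in DMF where MMF has a free acid, so they were compared directly at each of the 2 times, with p-values adjusted over all genes. At 24 h none of 11 mitochondrial members differed by limma or edgeR, none had an unadjusted p below 0.05, and for 10 of them the 95% interval of the difference lay within ±0.5 log2. Of 79 nuclear members 9 were lower and 2 higher with DMF (median -0.14), where 11.4% of all genes were lower and 10.1% higher, and 71 of 79 intervals lay within ±0.5. Cox6a2 was higher with DMF by 1.62 (95% interval 1.23 to 2.00, limma adjusted p = 0.000504) and Uqcrq by 0.26 (0.08 to 0.43, adjusted p = 0.0437).

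The 9 members lower with DMF than with MMF were about as frequent as the 11.4% of all genes. Among them Ndufv1 was lower by 0.31 (95% interval -0.46 to -0.15, limma adjusted p = 0.013), at 2734, 2586 and 2772 counts with DMF and 3325, 3142 and 3539 with MMF, without overlap. Ndufb4 (-0.37), Ndufc1 (-0.36), Ndufs5 (-0.32) and Ndufc2 (-0.32) were lower as well, and outside complex I Atp5mk (-0.31), Atp5f1a (-0.28) and Uqcrfs1 (-0.24). With replicate number as a block the 11 calls became 28, and the share of all genes called with the block is not given here. The call of Uqcrq was lost without MMF replicate 1 or 2 (0.24 and 0.20) or DMF replicate 2 or 3 (0.27 and 0.21), that of Ndufb4 without any but DMF replicate 2 (-0.41 to -0.28), that of Ndufc1 without DMF or MMF replicate 3 (-0.34 and -0.33), and that of Ndufs5 without DMF replicate 1 or 2 (-0.27 and -0.29) or MMF replicate 1 or 3 (-0.35 and -0.28). The count was 6 without MMF replicate 1, 3 without MMF replicate 3, 5 without DMF replicate 2 and 4 without DMF replicate 3. At 4 h no member differed by limma or edgeR (0 of 11 mitochondrial and 2 of 78 nuclear at an unadjusted p below 0.05), where 3.37% of genes were higher and 4.97% lower with DMF, and 10 of 11 and 52 of 78 intervals lay within ±0.5.

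The remaining comparisons at 4 h called no member by limma or edgeR. LPS against DMSO gave medians of 0.23 and 0.13 for the sets, with 4 of 12 mitochondrial and 6 of 78 nuclear members at an unadjusted p below 0.05, beside a background of 7.7% higher and 6.38% lower. It gave 4 calls without LPS replicate 2. LPS against EtOH gave 0.08 and 0.11, with 0 of 12 and 1 of 77 at an unadjusted p below 0.05, beside 5.69% higher and 4.48% lower. LPS plus DMF against LPS gave -0.13 and 0.10, with 1 of 12 and 0 of 78, beside 4.55% higher and 6.51% lower. With replicate number as a block mt-Nd2 was then called lower with DMF (-0.33, limma adjusted p = 0.0408), and 2 members were called without DMF replicate 1 and 1 without LPS replicate 2.

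In the main fits more members were called with time than with LPS, DMF or MMF. The 6 comparisons of 24 h with 4 h share no library, and calls are counted over them. Same-numbered libraries of the LPS groups deviated together in several comparisons, so those treatments are not fully independent of each other. Called lower were 4 mitochondrial and 27 nuclear members with DMSO (25.8% of all genes), 6 and 29 with EtOH (29.5%), 4 and 16 with LPS (24.3%), 6 and 41 with LPS plus DMF (29.1%), 4 and 14 with LPS plus MMF (24.3%) and 9 and 44 with LPS plus CBD (31.6%). Called higher were 1 and 6 with DMSO (25.7%), 1 and 7 with EtOH (29.1%), 0 and 2 with LPS (24.7%), 1 and 4 with LPS plus DMF (29.7%), 1 and 4 with LPS plus MMF (25.1%) and 0 and 6 with LPS plus CBD (31.6%). The members were 11 or 12 mitochondrial and 78 or 79 nuclear in each comparison. Members called higher were below the background share in each treatment, while the shares called lower ranged from below it for the nuclear set with LPS and with LPS plus MMF to above it for both sets with LPS plus CBD.

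Within the mitochondrial set the time course split by gene. mt-Cytb, mt-Nd1, mt-Nd2 and mt-Nd4 were lower at 24 h in all 6 treatments, with log2 differences from -1.89 to -0.23, -1.71 to -0.35, -1.41 to -0.25 and -1.46 to -0.19. The largest falls were those with LPS plus CBD, where mt-Cytb went from 59308, 68370 and 66793 to 17660, 15048 and 20236 counts (-1.89, SE 0.12, limma adjusted p = 1.79e-06). With LPS alone mt-Cytb was lower by 1.03, and by 0.78 without LPS 24 h replicate 1. mt-Co1 was called higher at 24 h with DMSO (0.33), EtOH (0.38), LPS plus DMF (0.42) and LPS plus MMF (0.40), while its differences of 0.25 with LPS and -0.22 with LPS plus CBD were not called. mt-Co2 was called in none of the 6 treatments, and mt-Nd3 was tested in 1 and not called there. mt-Nd5 and mt-Nd6 were lower in 3 treatments each. The median over the set was -0.99 with LPS plus CBD, -0.44 with LPS, -0.25 with EtOH, -0.23 with LPS plus DMF, -0.11 with DMSO and -0.11 with LPS plus MMF.

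Of the 78 nuclear members tested in all 6 treatments, 8 were called lower in each, while 12.3% of the 11175 genes tested in all 6 were lower in each and 9.04% higher. The 8 were the c-subunit genes Atp5mc1 (-0.75 to -0.46) and Atp5mc3 (-1.03 to -0.49), the stator subunit Atp5pb, Uqcr11, and the complex I accessory subunits Ndufa5, Ndufa10, Ndufb7 and Ndufb8 (-1.0 to -0.56). Atp5mc1 was at 2487, 2152 and 2349 counts with DMSO at 4 h and 1579, 1539 and 1352 at 24 h. Atp5mc3 was at 3925, 3643 and 3935 and then at 2773, 2506 and 2660. In both genes every 24 h library was below every 4 h library. Higher in all 6 treatments was Cox7a2l (0.27 to 0.50), which takes part in joining complexes III and IV into supercomplexes, at 1924, 2198 and 2105 counts with DMSO at 4 h and 2385, 2607 and 2652 at 24 h, without overlap. Ndufv3 was called higher in 5 (0.53 to 1.02) and stood at 0.13 with LPS plus CBD, not called. Uqcrh was the 1 member called in both directions, and 16 nuclear members were called in none. With DMSO, the total of 38 calls was 25 and 21 without 4 h replicates 4 and 6 and 19 and 22 without 24 h replicates 5 and 6. With LPS, the total of 22 was 17 without 24 h replicate 1, 11 without 24 h replicate 3 and 14 without 4 h replicate 3.

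Short promoter sequences are shown for nuclear members whose transcripts moved, since the text above groups genes that moved together. RefSeq promoters (250 bases before to 50 after the gene start, on GRCm38.p6) matched 52 of the 83 nuclear members. Both strands were searched for the letters CCGGAAG (the ETS core bound by GABP), TGACNNNGC (the antioxidant response element, bound by Nfe2l2), the palindromic core of the NRF1 motif and an extended YY1 motif, the latter in capitals in Ndufa9 below. They were found in 9, 8, 3 and 4 of the 52, or 17.3%, 15.4%, 5.77% and 7.69%. Of all 27025 genes with such promoters, 9.93%, 14.0%, 1.07% and 0.755% had a match in at least 1 promoter. A match is a description and not a site. Capitals mark the matches in Ndufa9, a complex I subunit lower with CBD and with DMF at 24 h, and in Uqcrh, lower with CBD.
Ndufa9, chr6:126849095-126849394, minus strand, antioxidant response element and YY1 letters: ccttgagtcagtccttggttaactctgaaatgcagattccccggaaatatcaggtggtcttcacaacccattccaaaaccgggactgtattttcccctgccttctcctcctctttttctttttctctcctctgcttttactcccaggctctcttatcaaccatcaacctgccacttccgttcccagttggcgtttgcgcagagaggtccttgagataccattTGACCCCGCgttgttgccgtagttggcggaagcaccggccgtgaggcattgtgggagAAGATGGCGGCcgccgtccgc
Uqcrh, chr4:116075021-116075320, minus strand, ETS letters: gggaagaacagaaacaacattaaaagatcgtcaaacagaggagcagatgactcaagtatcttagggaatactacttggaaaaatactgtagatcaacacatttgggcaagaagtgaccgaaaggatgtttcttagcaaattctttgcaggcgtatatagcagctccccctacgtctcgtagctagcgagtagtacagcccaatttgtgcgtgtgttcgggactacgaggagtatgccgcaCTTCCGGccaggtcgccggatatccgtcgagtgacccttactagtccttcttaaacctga

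Genes that build, regulate or serve the chain were counted from lists outside the members, here beside the 24.8% of all genes lower and 23.9% higher with CBD at 24 h. The nuclear regulators had 5 of 9 lower and 1 higher with CBD (median -0.25). The orphan receptor Esrra was lower by 0.52 and Sp1 by 0.47, whereas Nrf1, a transcription factor of respiratory genes, was higher by 0.32. Of 28 genes that copy, transcribe or process the mitochondrial genome 7 were lower and 5 higher (median -0.09), shares near the background, with the polymerase accessory subunit Polg2 at -0.53, the tRNA-processing enzyme Elac2 at -0.47, and the mTERF-family members Mterf4 at 0.55 and Mterf3 at 0.43. All 3 uncoupling and nucleotide-exchange carriers were lower (median -0.44), Ucp2 by 0.86 and the adenine nucleotide carrier Slc25a5 by 0.44. Complex II and the electron carriers had 1 of 9 lower and 1 higher (median -0.18; Sdhd -0.23 and Etfdh 0.32), and 40 assembly factors 1 lower and 2 higher (median 0.01; Tmem70 -0.28, Tmem126a 0.59 and Surf1 0.31).

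With DMF against LPS at 24 h, where 13.2% of all genes were lower and 11.9% higher, 4 of 9 genes of complex II and the carriers were lower (median -0.22), among them Sdhc (-0.38) and Etfa (-0.27), 2 of 40 assembly factors were lower (Nubpl -0.45 and Ndufaf3 -0.38), and of 28 genome-expression genes 1 was lower (Top1mt -0.53) and 2 higher (Fastkd3 0.42 and Mterf3 0.26), while no regulator or carrier was called. With LPS against DMSO at 24 h, where 12.1% of all genes were higher and 10.6% lower, 7 of 40 assembly factors were higher and none lower (median 0.15), led by Ndufaf5 (0.56) and the complex IV factor Cox18 (0.55), and Cox18 was also higher against EtOH (0.58) among 5 such calls of 40, beside 10.8% of all genes higher. Cycs, which encodes cytochrome c, was higher by 0.34 and Etfdh lower by 0.44 against DMSO. With MMF against LPS no gene of these lists was called by limma.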

How the data were processed

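Poly(A) RNA of the 36 libraries had been sequenced in paired reads of 150 bases. The authors trimmed the reads (Trimmomatic 0.39, Cutadapt 4.4), aligned them with HISAT2 2.2.1 to GRCm39 with Ensembl 110 genes and counted them with HTSeq 2.0.3, per the labels and the study's methods. The strand setting and the handling of reads that match several places are not given in the sources used here. The deposited tables, 1 for each pair of groups, hold a normalised signal per gene and library, which is the read count divided by a DESeq2 size factor (DESeq2 1.40.2) of that pair. Of the 30 deposited tables, 18 served here. They also hold fold changes and p-values of the authors' own comparisons, which were not used.

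Whole reads were recovered from 97 of 108 columns, and 100% of 1685120 values were whole within 0.01 read. Dividing these by a median-of-ratios factor over the 36 libraries gave the levels. For each pair of groups, log2(normalised count + 1) of the 6 libraries was fitted with limma 3.58.1 in R 4.3.3, for genes with at least 10 normalised counts in at least 3 libraries, which keeps the unit of the files where a count model had been planned. Interactions used 12 libraries at the common scale. Replicate pairs differed by more than sampling noise (chi-square per degree of freedom 5.25 to 34.3). Alternatives were pseudocount 10, no filter, edgeR 4.0.16 on the recovered reads, all 36 libraries in 1 fit, the replicate number as a block, each library left out, and 1 added after seeing the data. The limma step was tested on simulated data.

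The labels give replicate numbers (4 to 6 for the vehicles, 1 to 3 otherwise) without tying them to an experiment or day. Pairing was therefore sought in the data. Same-numbered libraries deviated together (all correlations over 0.1) for DMF against LPS at both times, MMF against LPS at 24 h, CBD against LPS at both times, DMF against MMF at 24 h, and 24 h against 4 h with LPS and with LPS plus MMF. The main fits did not use this pairing, so SE, p-values and calls are unpaired unless a block is named. The members and gene lists were chosen with earlier results of these data known. Members named by rule were the mitochondrial set, the 3 largest rises and falls among nuclear members called with a mean of at least 50 counts, the alternative subunits and Atp5if1, and of each list the 2 largest called per direction. Other called members were named after their values were seen. Cox8c and the mitochondrial rRNAs were not analysed here, and some members are counted but not reported singly here. Nuclear copies were found with blastn 2.17.0.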

Additional observations from a re-analysis of the deposited data

Results flagged for a closer look

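The effect of CBD differed between 24 h and 4 h, by a test of the difference itself (limma, 12 libraries, Benjamini-Hochberg adjusted over all genes), for 3 mitochondrially encoded members. In the same test 16.7% of all genes were called lower and 15.4% higher. The difference of the log2 effects, 24 h minus 4 h, was -0.89 for mt-Atp6 (adjusted p = 0.047), -0.86 for mt-Cytb (adjusted p = 0.0186) and -0.75 for mt-Nd1 (adjusted p = 0.025). Without LPS 24 h replicate 1 these were -1.17, -1.12 and -0.92.

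Among nuclear members the same difference was -0.56 for Atp5mf (limma adjusted p = 0.00948), -0.52 for Atp5mc3 (adjusted p = 0.0214), -0.47 for Atp5f1a (adjusted p = 0.0345), -0.47 for Uqcrh (adjusted p = 0.0337) and -0.44 for Uqcrfs1 (adjusted p = 0.0267). It was positive for Ndufs8, an iron-sulfur subunit of complex I, at 0.38 (limma adjusted p = 0.0319), for Uqcrq at 0.53 (adjusted p = 0.0292) and for Cox6a2 at 3.62 (adjusted p = 2.05e-06). The shares of nuclear members called lower and higher were both below those of all genes, 16.7% and 15.4%. Without LPS 24 h replicate 1 the nuclear calls went from 8 to 4. Those lost were Atp5f1a (-0.36), Uqcrh (-0.43), Uqcrfs1 (-0.33) and Uqcrq (0.46), and those still called were Atp5mf (-0.51), Atp5mc3 (-0.40), Ndufs8 (0.41) and Cox6a2 (3.68). The effect of DMF differed between the times for Cox6a2, by 1.57 (limma adjusted p = 0.00247), and by 1.64 without that library. In the main test of that difference 8.45% of all genes were called higher and 7.89% lower. The reads of Cox6a2 could include some of Itgad on the other strand, which rose in the same libraries to at most 38.3 counts.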

How the results depend on the processing

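Each group had 3 libraries, and 1 LPS group at 24 h served in several comparisons. For 137 results on single named members, 1327 values under alternatives kept their call and 232 lost it, 43 of these with all libraries in, and none changed direction. The cause of the changes below was not tested. Shares of all genes called under the alternatives are not given, so the counts below have no background beside them.

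With replicate number as a block the count of members called went from 0 to 1 (DMF against LPS, 4 h), 11 to 24 (DMF against LPS, 24 h), 0 to 2 (MMF against LPS, 24 h), 11 to 28 (DMF against MMF, 24 h) and 1 to 2 (DMF interaction), and the block moved no other count by over 1.5 times. No paired analysis was possible for LPS against either vehicle because the groups share no replicate number. In 1 fit of all 36 libraries the count was 2 for LPS against DMSO at 4 h, 1 for DMF against MMF at 4 h, 9 for the DMF interaction and 23 for 24 h against 4 h with DMSO. Without the filter it was 2 for LPS against EtOH at 24 h.

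Leaving out each library in turn, the count ranged from 0 to 4 for LPS against DMSO at 4 h, 1 to 18 at 24 h, 1 to 10 for LPS against EtOH at 24 h, 0 to 2 and 3 to 17 for DMF against LPS at 4 h and 24 h, 3 to 15 for DMF against MMF at 24 h, 19 to 39 and 11 to 22 for 24 h against 4 h with DMSO and with LPS, 1 to 6 for the DMF interaction and 4 to 22 for the CBD interaction. The count for CBD against LPS at 24 h ranged from 25 to 33, and from 30 to 43 over the other alternatives.

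The median log2 difference of the mitochondrial set minus that of the nuclear set ranged from -0.23 to 0.058 for DMF against MMF at 4 h (-0.14 with all libraries), where it changed sign to 0.058 without DMF 4 h replicate 1. It ranged from -0.22 to 0.0197 for 24 h against 4 h with LPS plus MMF, -0.88 to -0.54 with LPS plus CBD, and 0.21 to 0.68 for the DMF interaction. With pseudocount 10 it was -0.52 for 24 h against 4 h with LPS plus CBD. With the 5 mitochondrial members that have no exact nuclear copy, an alternative chosen after seeing the data, the values for 24 h against 4 h were -0.38 with EtOH (from -0.12), -0.79 with LPS (from -0.28), -0.17 with LPS plus DMF (from 0.14), -0.48 with LPS plus MMF (from -0.04) and -1.13 with LPS plus CBD (from -0.71).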

Other observations

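Cox5b-ps fits the naming rule because the tables give it as protein coding, although its name marks a pseudogene of Cox5b. It was counted in the nuclear set, and its reads and those of Cox5b cannot be told apart with certainty.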
